A study of Mus musculus with 3 samples.

Results

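The expression of 10 genes of fatty acid binding, activation and mitochondrial oxidation was measured in cultured cortical astrocytes of the mouse: the fatty acid binding protein genes Fabp3, Fabp5 and Fabp7, the acyl-CoA synthetase genes Acsbg1, Acsl3 and Acsl6, and the oxidation genes Cpt1a, Hadha, Acaa2 and Acadvl. They were chosen by symbol, and all 10 were found among the 19471 genes of the deposited table. The series concerns the histone variant H2BE, and the libraries used here are its wild-type astrocyte group, with no mutant, treated or older group beside it. Cortical astrocytes were taken from wild-type (WT) pups at postnatal day 1 (P1), were kept in culture for 7 days, and gave 1 poly(A) RNA library for each of 3 pups. The labels mark the libraries as biological replicates 1, 2 and 3 and number the pups 5, 6 and 8. The age is P1 in titles and design text, but the short description of each library reads P0. That description also marks each library as Ctrl. The sources used here do not state strain, sex or how the cells were purified. With 1 group, every comparison below is between genes within a library or between the libraries themselves.

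Long-chain fatty acids are poorly soluble in water and are carried in the cytosol by fatty acid binding proteins. Acyl-CoA synthetases then spend ATP to join them to coenzyme A, which traps them in the cell and commits them to membrane lipid, storage or breakdown. For breakdown in mitochondria, the acyl group is moved onto carnitine by carnitine palmitoyltransferase at the outer membrane, is carried inside, and is shortened in repeated rounds of dehydrogenation, hydration, a further dehydrogenation and thiolysis. In the brain this pathway is known mainly from astrocytes and neural progenitors, and the brain-type binding protein encoded by Fabp7 is a classical marker of radial glia and immature astrocytes.

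The libraries held 14380993, 25128038 and 9858626 reads in replicates 1, 2 and 3. Values are normalized read counts as the authors deposited them, and the error given with a mean is the SD over the 3 libraries. Longer transcripts collect more reads, so levels of different genes are compared per kilobase (kb) of exon, using the summed length of all annotated exons of a gene. All 12 astrocyte markers examined had a mean of 10 or more, with Gfap at 52283 ± 6679, and 10 of the 12 reached 1000. Slc1a2 at 946 ± 91.4 and S100b at 68.7 ± 19.4 did not. Other cells were also represented. The 10 microglial markers summed to between 23030 and 33437, against 152445 to 171545 for the astrocyte markers, and the 6 ependymal markers to between 10395 and 14290. Of the ependymal sum, Foxj1 made up 9966 ± 1517, and the other markers had means from 13.6 (Tmem212) to 827 (Rsph1). Markers of radial glia and neural progenitors summed to 120949 to 128578, mostly Vim and Nes, which astrocytes in culture also express. Mural markers summed to 49408 to 50571, of which Acta2 made up 48318 ± 806. The oligodendrocyte lineage list summed to 6536 to 9078, mostly Olig1 at 5896 ± 1027 and Olig2 at 1240 ± 102. Sox10, Mag and Mobp of that list were low, with means of 14.9, 4.85 and 1.41. The fibroblast and meningeal list summed to 3275 to 3985, mostly Ogn at 1658 ± 220 and Col1a2 at 1072 ± 94.2. Dcn, Lum and Slc6a13 of that list had means of 14.4, 2.20 and 0.954. Neuronal markers summed to 831 to 1254, with Stmn2 at 669 ± 129 the highest and Snap25 and Slc17a7 lowest at 2.51 and 0.786. Endothelial markers summed to 768 to 848, with Kdr at 690 ± 59.6 and Pecam1 at 5.43 ± 1.54. In such bulk RNA, fewer cells of a type and less RNA per cell cannot be told apart, and which cells gave the reads of a fatty acid gene was not tested.

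The stretches just before the start sites of 3 members, and between the start sites of Hadha and its neighbour Hadhb, are shown because these genes hold the highest levels of the binding and activation classes (Fabp7 and Acsbg1), the reference synthetase (Acsl3), and the only member whose start site faces that of a well-expressed neighbour within 1000 bases (Hadha). Sequences are from RefSeq (GRCm38.p6, the mm10 coordinates), 5′ to 3′ on the strand of the gene, or on the plus strand for the pair. Capitals mark CCAAT or GGGCGG on either strand, and where these overlap they run together.
Fabp7, chr10:57784673-57784880, plus strand: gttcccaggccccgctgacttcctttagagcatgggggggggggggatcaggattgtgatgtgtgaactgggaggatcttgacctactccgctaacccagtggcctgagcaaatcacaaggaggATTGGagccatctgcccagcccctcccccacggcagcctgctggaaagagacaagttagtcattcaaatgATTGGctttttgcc
Acsbg1, chr9:54661886-54662135, minus strand: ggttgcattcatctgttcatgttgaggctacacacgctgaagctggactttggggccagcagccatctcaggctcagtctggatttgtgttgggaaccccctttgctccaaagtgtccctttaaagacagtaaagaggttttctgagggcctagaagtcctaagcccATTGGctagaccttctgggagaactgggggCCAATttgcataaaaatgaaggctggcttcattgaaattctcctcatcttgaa
Acsl3, chr1:78657575-78657824, plus strand: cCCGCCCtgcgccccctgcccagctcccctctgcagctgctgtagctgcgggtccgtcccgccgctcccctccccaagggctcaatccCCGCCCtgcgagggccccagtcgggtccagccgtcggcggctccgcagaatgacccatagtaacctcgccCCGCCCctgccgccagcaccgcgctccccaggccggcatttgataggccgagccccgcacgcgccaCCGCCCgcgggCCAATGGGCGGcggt
Hadha and Hadhb, chr5:30155163-30155247, plus strand: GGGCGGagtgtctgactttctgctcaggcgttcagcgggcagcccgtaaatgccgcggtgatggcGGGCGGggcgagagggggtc

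The stretches upstream of Fabp7 and Acsbg1 each held 2 CCAAT matches, no GGGCGG, and few CpG pairs, 3 in 208 bases and 1 in 250 bases. The Acsl3 stretch differed from them, with 5 GGGCGG matches, 1 CCAAT match and 28 CpG pairs in 250 bases. The 85 bases between Hadha and Hadhb held 2 GGGCGG matches and 9 CpG pairs. Windows of 300 bases around the start site (250 before, 50 after) were examined for 8 of the 10 members, all except Fabp5 and Acaa2. Across all 32851 windows of that length, CCAAT was found in 37.4%, GGGCGG in 35.7%, and the median number of CpG pairs was 7. The 300-base windows of Acsbg1 and Fabp7 held 2 and 6 CpG pairs, at or below that median, whereas those of Acsl3, Cpt1a, Fabp3 and Hadha held 33, 22, 22 and 20. The Acadvl window held 9, and the 3 windows of Acsl6 held 5, 36 and 1. The windows follow RefSeq start sites, which can differ from the outermost gene bounds of GENCODE given below. Those of Fabp3, Fabp7, Acsl6, Cpt1a and Hadha use a start inside these bounds, and those of Acsbg1 and Acadvl a start outside them. TATAAA on either strand, present in 13.6% of all windows, was in none of the windows of the members. AGGTCA, a core motif bound by many nuclear receptors, was found in 16.3% of all windows and in those of Fabp7, Acadvl, Cpt1a and 1 of the 3 windows of Acsl6. These matches are descriptions of letters and say nothing of binding.

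**Figure D1:**
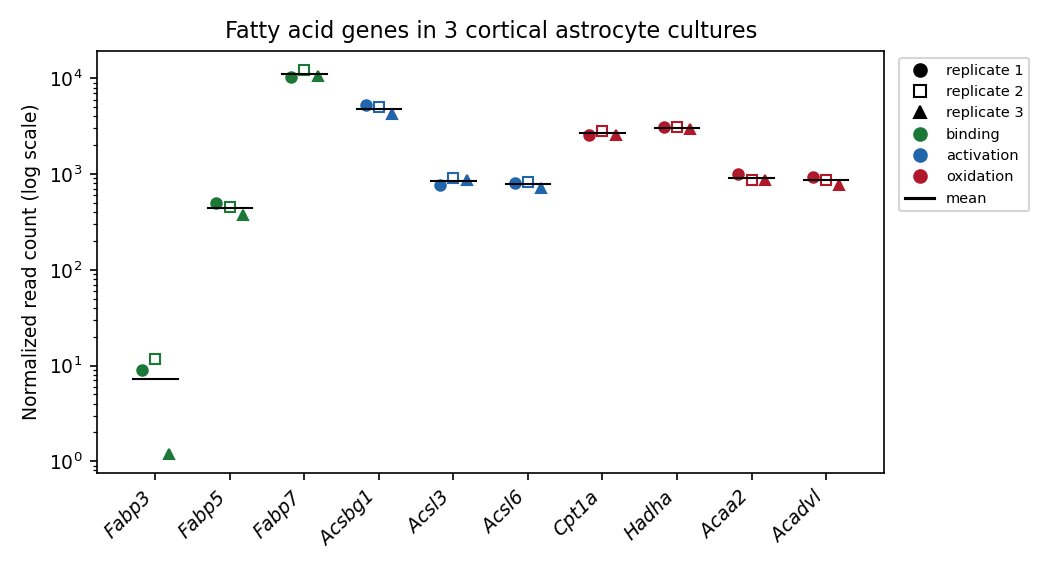
Normalized read count (log scale) of the 10 members in each of the 3 libraries, with the mean as a bar and the role of the gene as colour. Fabp7 lay highest at a mean of 11035, Fabp3 lay lowest at 7.31, and the other 8 fell between 441 and 4822.

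Among the binding protein genes, Fabp7 dominated, Fabp5 was expressed at a moderate level and Fabp3 was near the limit of detection. Fabp7 (ENSMUSG00000019874, chromosome 10, 57784881 to 57788450) encodes the brain-type protein. Replicates 1, 2 and 3 gave normalized counts of 10294, 12257 and 10554, from 8826 to 25984 reads. Replicate 2 was highest and the other libraries lay close together, at a mean of 11035 ± 1066 (n = 3). Per kb of exon its level ranked 29 among the 13897 genes tested.

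Fabp5 (ENSMUSG00000027533, chromosome 3, 10012548 to 10016607), the epidermal-type carrier, stood at 497, 453 and 373 in replicates 1, 2 and 3. The mean was 441 ± 62.8, and replicate 3 was the lowest. Its level per kb lay below that of Fabp7 in every library, by 6.16 ± 0.13 (SE) on the log2 scale, with a within-library ratio of Fabp7 to Fabp5 of 72.3 ± 11.6. The summed exon length of Fabp5 includes a long transcript with a retained intron. With the length of the principal transcript in its place (987 nucleotides against 3567), the ratio was 31.1 ± 4.99. Of the 50-base stretches of Fabp5 transcripts, 5.48% also occur in annotated copies such as Fabp5l2, so some reads may have been assigned differently by the counting.

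Fabp3 (ENSMUSG00000028773, chromosome 4, 130308595 to 130315463), the heart-type carrier that is best known from muscle and neurons, had 11, 25 and 1 reads. These are normalized counts of 8.95, 11.8 and 1.20, a mean of 7.31 ± 5.48. Replicate 3, the shallowest library, lies at 1 read, where a count of 3 would be a value of 3.59. This mean was under the minimum of 10, so Fabp3 entered none of the tests that used this minimum. In addition 37.3% of its 50-base stretches are shared with Fabp3-ps1 or with Gm10570 and Zcchc17, which overlap it on the opposite strand, so even this low value is uncertain.

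To place each gene among all detected genes, its log2 level per kb was compared with the median gene of the same library in a limma model, adjusted over 13897 genes. Here 45.5% of all genes were called above the median and 44.9% below it (adjusted p under 0.05), so such a call is common. Of the 9 members tested, 8 were called above, 0 below, and Acsl6 was not called. Their median difference was 2.28, beside -0.01 over all genes tested. Fabp7 lay 6.94 ± 0.09 (SE) above the library median and Fabp5 0.78 ± 0.10 above it (adjusted p = 8.30e-05, limma). With the principal transcript length Fabp5 lay 2.01 above it, and with no division 0.34.

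Of the synthetase genes, Acsbg1 stood far above Acsl3 and Acsl6. Acsbg1 (ENSMUSG00000032281, chromosome 9, 54604877 to 54661870) encodes the bubblegum acyl-CoA synthetase, which activates long and very long chains and is abundant in brain. Its normalized count was 5272, 4994 and 4198, a mean of 4822 ± 557. Replicate 3 was the lowest, and no library of Acsbg1 came near any library of Acsl3 or Acsl6. It ranked 335 per kb and lay 4.22 ± 0.09 above the library median (adjusted p = 1.68e-09, limma).

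Acsl3 (ENSMUSG00000032883, chromosome 1, 78657825 to 78707743), whose product sits on the endoplasmic reticulum and on lipid droplets, stood at 769, 911 and 873, a mean of 851 ± 73.9. Replicate 1 was lowest here, unlike for Acsbg1. The log2 level of Acsbg1 per kb exceeded that of Acsl3 by 2.77 ± 0.14 (adjusted p = 1.12e-22, limma), a ratio of 8.29, 6.62 and 5.81 in replicates 1, 2 and 3.

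Acsl6 (ENSMUSG00000020333, chromosome 11, 54303798 to 54364756), a brain synthetase tied to polyunsaturated fatty acids, stood at 804, 822 and 713, a mean of 780 ± 58.6. In normalized counts its libraries overlapped those of Acsl3. Per kb it lay 1.31 ± 0.13 below Acsl3 (adjusted p = 1.11e-12, limma), but its 15 annotated transcripts sum to 9914 nucleotides of exon. Divided by the principal transcript it lay 0.48 above Acsl3 (adjusted p = 2.26e-04, limma), and with no division 0.13 below with no call (adjusted p = 0.30, limma). The order of Acsl3 and Acsl6 therefore rests on the choice of length. The same holds for its place among all genes, which was 0.13 above the library median per kb of exon (adjusted p = 0.19, limma) and 1.44 above it with the principal transcript.

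Of the other long-chain synthetase genes, Acsl1 and Acsl4 were lower than Acsl3 and Acsl5 was not told apart from it. Acsl5, a mitochondrial and endoplasmic reticulum enzyme, had a normalized count of 822 ± 112 and lay 0.21 ± 0.12 below Acsl3 on the log2 scale per kb, which did not pass the test (adjusted p = 0.0963, limma). Acsl4, which prefers arachidonic acid, stood at 203 ± 18.2 and lay 2.37 ± 0.14 below Acsl3. Acsl1, the main synthetase of fat and liver, stood at 303 ± 52.1 and lay 2.77 ± 0.15 below it. With principal transcript lengths the differences were -2.48 for Acsl4 and -1.48 for Acsl1, so the order of these genes rests on the divisor. In a list of 21 further activation and acyl-CoA thioesterase genes, which holds these 3, 18 were in the table and 15 were tested. Against Acsl3, 4 of the 15 were called above (Acot13, Acot11, Acss1 and Acsf2) and 9 below, where 19.7% and 72.2% of all genes were. Without division by length 2 were above and 10 below. The thioesterase genes Acot13 at 376 ± 21.7 and Acot11 at 1937 ± 114 normalized counts had the highest levels per kb of this list, and Acsm3 at 3.42 ± 0.914 and Acsm5 at 2.11 ± 1.05 the lowest.

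The 4 oxidation members were all called above the library median, beside 45.5% of all genes, by 2.15 to 3.06 on the log2 scale per kb. With no division by length they were also called above it, from 1.30 for Acadvl and 1.39 for Acaa2 to 3.14 for Hadha. Cpt1a (ENSMUSG00000024900, chromosome 19, 3322334 to 3385733) encodes the carnitine palmitoyltransferase that malonyl-CoA inhibits and that sets entry into mitochondria. It stood at 2554, 2828 and 2592, a mean of 2658 ± 148, and lay 2.28 ± 0.07 above the library median on the log2 scale per kb (adjusted p = 1.48e-08, limma).

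Hadha (ENSMUSG00000025745, chromosome 5, 30118304 to 30155162) encodes the alpha subunit of the mitochondrial trifunctional protein, which carries the hydratase and the long-chain hydroxyacyl-CoA dehydrogenase. Its values of 3101, 3107 and 2942 gave a mean of 3050 ± 93.8, and the libraries lay within 1.06-fold of each other. Against Cpt1a it lay at 0.01 ± 0.09 on the log2 scale per kb (adjusted p = 0.94, limma). With the principal transcript length the difference was 0.30 and was called (adjusted p = 0.00595, limma), and with no division it was 0.20 (adjusted p = 0.033, limma).

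Acaa2 (ENSMUSG00000036880, chromosome 18, 74779197 to 74806208), the mitochondrial thiolase of the last step, stood at 999, 867 and 861, a mean of 909 ± 77.8. Acadvl (ENSMUSG00000018574, chromosome 11, 70010183 to 70015411), the very long-chain acyl-CoA dehydrogenase of the first step, stood at 936, 863 and 775, a mean of 858 ± 80.8. Both were highest in replicate 1 and lowest in replicate 3. Acaa2 lay 0.78 ± 0.10 above Cpt1a per kb (adjusted p = 1.76e-06, limma) and Acadvl at -0.12 ± 0.10 (adjusted p = 0.229, limma). Neither value was stable to the divisor: with principal transcript lengths they were -0.04 (adjusted p = 0.705, limma) and -0.64 (adjusted p = 1.03e-05, limma), and with no division -1.55 and -1.63. Acadvl shares 42.9% of its exon length with Dvl2 on the opposite strand. The strand setting of the counting is not given in the sources used here, so reads of these genes may not have been fully separated, and Dvl2 had a mean of 509.

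**Figure D2:**
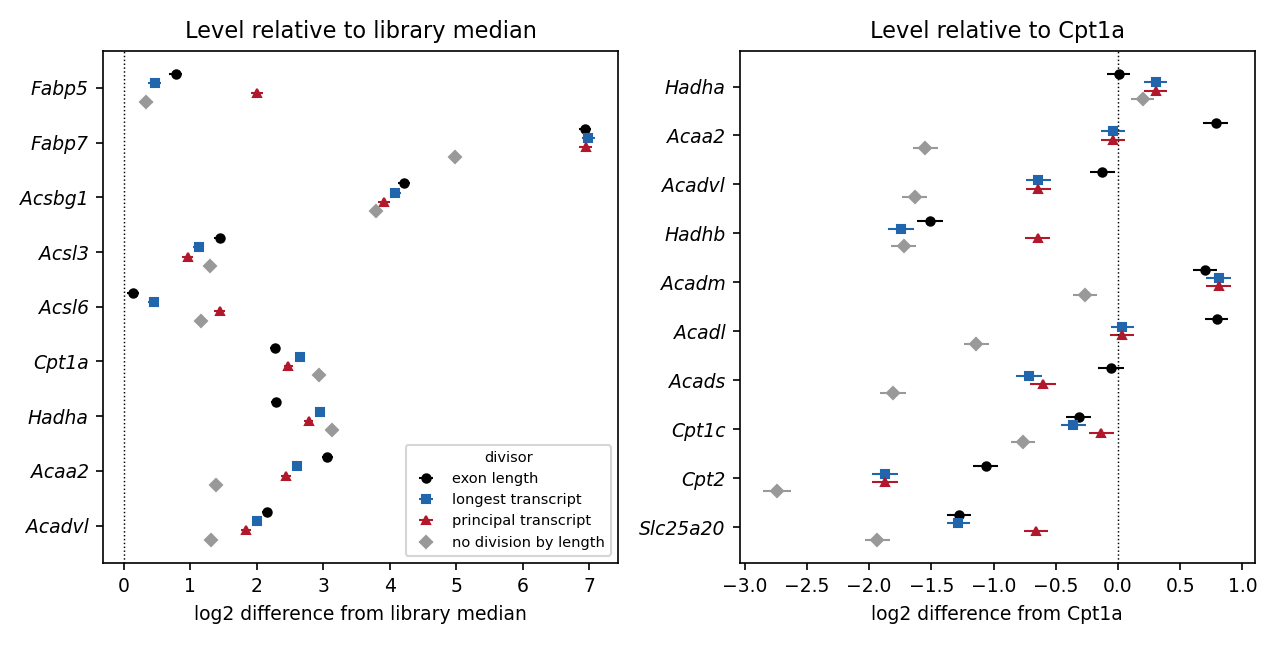
Log2 level of 9 members against the library median (left) and of oxidation genes against Cpt1a (right), as means with SE from limma over 3 libraries, for 4 choices of length divisor. Fabp7 and Acsbg1 stayed highest under each divisor, whereas Acaa2 moved from 0.78 above Cpt1a to 1.55 below it.

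Among paralogs and partners of the oxidation members, 1 paralog of Cpt1a was well detected, somewhat below Cpt1a, and 1 was close to undetected. Cpt1c, the brain paralog in the endoplasmic reticulum with little transferase activity, stood at 1764, 1593 and 1364, and lay 0.32 ± 0.10 below Cpt1a per kb (adjusted p = 0.00822, limma). That call ended without replicate 3 (-0.23, adjusted p = 0.0792, limma) and with the principal transcript length (-0.13, adjusted p = 0.211, limma). With no division by length Cpt1c lay further below Cpt1a (-0.76, adjusted p = 1.19e-13, limma). Cpt1b, the muscle paralog, stood at 3.25, 2.83 and 1.20, but 81.4% of its exon length is also annotated to Gm44502 on the same strand, so reads may have been lost in counting. The inner membrane enzyme gene Cpt2 at 399 ± 44.5 lay 1.06 ± 0.10 below Cpt1a (adjusted p = 6.19e-08, limma). The carnitine-acylcarnitine carrier gene Slc25a20 at 695 ± 31.8 lay 1.28 ± 0.10 below it (adjusted p = 2.97e-09, limma). Both were called below Cpt1a under each divisor, but the size moved: Cpt2 was at -1.87 with principal transcript lengths and -2.74 with no division, and Slc25a20 at -0.66 and -1.93.

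Hadhb, which encodes the thiolase subunit that pairs with the product of Hadha, stood at 806, 962 and 671, a mean of 813 ± 146. The start sites of the pair are 86 bases apart and point away from each other, around the 85 bases printed above. Hadha had 3.85, 3.23 and 4.39 times the normalized count of Hadhb, and 2.91, 2.44 and 3.31 times its level per kb of exon. Per kb of principal transcript the ratio was 1.95 ± 0.295. Hadhb varied more between libraries than Hadha, and replicate 2 was highest for Hadhb while Hadha was nearly level. Against Cpt1a, Hadhb lay 1.51 ± 0.11 below (adjusted p = 1.28e-09, limma), and at -0.65 with principal transcript lengths.

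Of the acyl-CoA dehydrogenase genes named for straight chain lengths, the medium-chain gene Acadm stood at a normalized count of 2214 ± 212, the long-chain gene Acadl at 1208 ± 87.0 and the short-chain gene Acads at 764 ± 115. Acadm lay 0.70 ± 0.10 and Acadl 0.79 ± 0.09 above Cpt1a per kb (adjusted p = 6.23e-06 and 7.44e-07, limma), and Acads at -0.06 ± 0.10 (adjusted p = 0.61, limma). Acadm was also above Cpt1a with principal transcript lengths (0.81), but Acadl was then at 0.034 with no call (adjusted p = 0.725, limma) and Acads was called below at -0.60 (adjusted p = 4.01e-05, limma). With no division by length all 3 lay below Cpt1a. In normalized counts Acadvl stood at 0.392 ± 0.0695 times Acadm and 0.710 ± 0.0486 times Acadl.

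Further genes of the pathway were counted from 8 lists. Of 117 listed genes, 106 were in the table and 97 had a mean of 10 or more. Against the library median, 59 of the 97 were called above and 31 below, beside 45.5% and 44.9% of all genes. Mitochondrial beta-oxidation had 16 of 20 above and 4 below, with a median difference of 1.53, and without division by length 18 above and 2 below. The highest of these per kb were Etfb at 1033 ± 75.9 and Etfa at 1353 ± 214 normalized counts, which encode the electron transfer flavoprotein that takes electrons from the dehydrogenases. Of the exon length of Etfb, 53.0% is also annotated to Gm45233 on the same strand. The lowest were Acad10 and Acad12 at 71.4 ± 4.35 and 140 ± 38.6. Against Cpt1a, 6 of the 20 lay above and 13 below, where 10.7% and 85.0% of all genes did, and with no division by length 0 lay above.

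The carnitine shuttle list had 6 of 6 tested genes above the library median, beside 45.5% of all genes. All 6 were below Cpt1a, beside 85.0% of all genes. Without division by length 4 of the 6 lay above the median. Crat, the carnitine acetyltransferase gene, stood at 1166 ± 70.2, and the carnitine transporter gene Slc22a5 at 304 ± 39.8. In the peroxisomal list, 8 of 13 lay above the library median and 5 below, beside 45.5% and 44.9% of all genes. Hsd17b4, which encodes a peroxisomal bifunctional enzyme, stood at 2757 ± 68.9, whereas Ehhadh at 31.4 ± 8.22 and Acaa1b at 1.34 ± 1.22 were the lowest. The ketone body list had 4 of 6 above and 1 below, beside the same shares of all genes. Oxct1, which lets cells use ketone bodies, stood at 5232 ± 155. Aacs, which returns acetoacetate to lipid synthesis, stood at 1032 ± 126 and Bdh2 at 305 ± 33.5.

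In the binding and uptake list, 6 of 10 tested genes lay above the library median and 2 below, beside 45.5% and 44.9% of all genes. Dbi, the acyl-CoA binding protein gene, stood at 21562, 18636 and 17540, a mean of 19246 ± 2079, and 1 of these 10 genes, Dbi, was called above Fabp7 per kb, beside 0.18% of all genes (0.62 ± 0.20, adjusted p = 0.00166, limma). Without replicate 3 that call ended (0.65, adjusted p = 0.101, limma). The other 9 were below Fabp7, as were 99.7% of all genes. Slc27a1, a fatty acid transport protein gene, stood at 1521 ± 226, the scavenger receptor gene Cd36 at 103 ± 17.2, and the sterol carrier gene Scp2 at 1226 ± 85.0. Fabp4, the adipocyte binding protein gene, stood at 0, 0.943 and 0, where a count of 0 allows up to 2.44 in replicate 1 and 3.59 in replicate 3, and Slc27a6 had a mean of 0.699 ± 0.837. Of the 21 genes of this list, 13 were in the deposited table. Fabp1, Fabp2 and Pmp2 were listed but had no row in it.

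Regulators of oxidation were split around the library median much as all genes were. Of 14 regulators tested, 6 lay above and 6 below the library median, beside 45.5% and 44.9% of all genes. Their median difference was 0.06. The receptor gene Ppard stood at 307 ± 35.8, while Ppara, the main activator of oxidation genes in liver, stood at 19.7 ± 2.76 and Pparg at 5.30 ± 1.55. The coactivator gene Ppargc1a stood at 464 ± 53.9 and its relative Ppargc1b at 15.1 ± 1.91. Prkag1 at 466 ± 16.0 and Prkab1 at 629 ± 21.4, subunit genes of the energy sensor AMPK, had the highest levels per kb of the regulators, although 43.7% of the exon length of Prkag1 overlaps an antisense gene. Of 13 lipid droplet genes, 4 lay above and 8 below, beside 45.5% and 44.9% of all genes. The droplet coat gene Plin2 at 1020 ± 121 and the lipase gene Pnpla2 at 656 ± 85.3 were highest per kb. Plin5 at 36.2 ± 6.92 and Plin4 at 15.7 ± 1.18 were lowest. Set against the median of all genes with any read, which is lower, 9 of the 13 droplet genes lay above and 4 below. The lower median raised the differences of all genes alike, for instance that of Fabp5 from 0.78 to 1.83. The shift was thus not particular to droplet genes, and shares of all genes against that median are not given here.

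**Figure D3:**
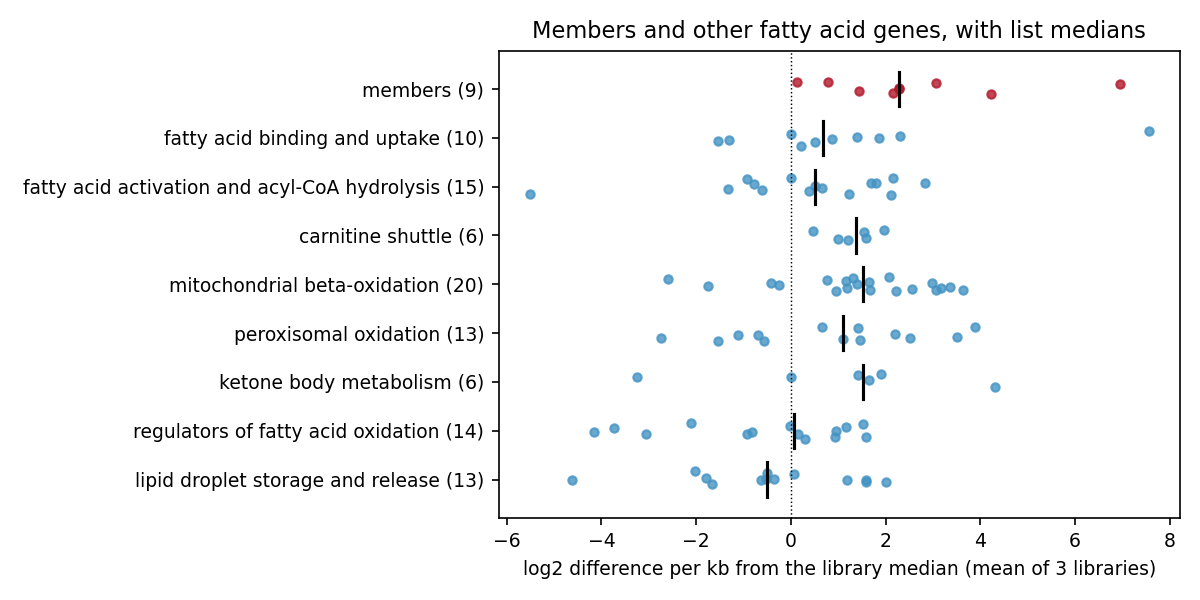
Log2 level per kb of exon against the library median, as the mean of 3 libraries, for each tested gene of the members and of 8 further lists, with the number tested in brackets and list medians as bars. The members lay at or above 0.13, and Dbi at 7.56 was the farthest right of all listed genes.

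In a chi-square test of recovered reads, 8 of the 9 members tested varied over the 3 libraries beyond counting error at an adjusted p under 0.05, beside 55.4% of all 13941 genes tested. With 1884 to 47466 reads per member this test finds small differences. The ratio of the highest to the lowest library was 1.06 for Hadha, which did not pass (adjusted p = 0.0831, chi-square test) but did without replicate 2 (adjusted p = 0.0476), 1.11 for Cpt1a, 1.19 for Fabp7, 1.26 for Acsbg1 and 1.33 for Fabp5. The SD of log2 values ran from 0.04 for Hadha to 0.21 for Fabp5, and the median over genes with a mean of 100 or more was 0.14. Among genes of similar mean (0.5 to 2 times its own), Hadha was at the 10.5 percentile of spread, Cpt1a at 27.5, Acsbg1 at 76.0 and Fabp5 at 75.9.

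**Figure D4:**
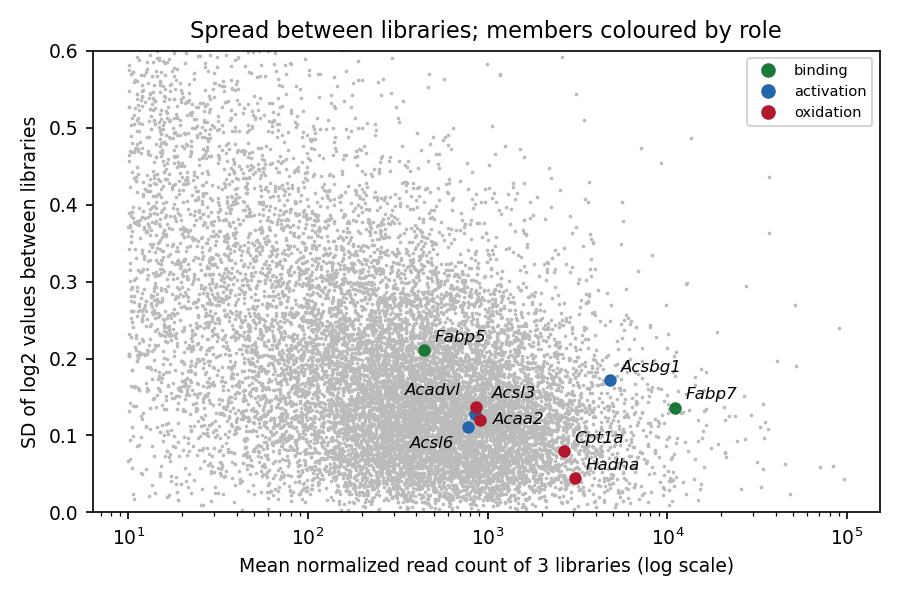
SD of log2 values between the 3 libraries against mean normalized count (log scale), with genes of mean 10 or more in grey and 9 members coloured by role. Hadha and Cpt1a lie low for their level, Fabp5 and Acsbg1 lie higher, and 410 genes above 0.6 are off the axis.

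Replicate 3 was the lowest library for 7 of the 10 members, and for 37.5% of all genes tested. These were Fabp3, Fabp5, Acsbg1, Acsl6, Hadha, Acaa2 and Acadvl, whereas Fabp7, Acsl3 and Cpt1a were lowest in replicate 1. No member was highest in replicate 3, where 35.7% of all genes were highest. The summed astrocyte markers were also lowest there, at 152445 against 171056 and 171545 in replicates 1 and 2. Most of the 12 markers were lowest in replicate 3, with Gfap at 44794.5 against 54430.2 and 57623.9. Glul and Sox9 were highest there, and Aqp4 and Clu were not lowest. The radial glia, oligodendrocyte lineage and microglial sums were lowest in replicate 3 too, while those of the other lists were not. Microglial markers were highest in replicate 1 at 33437, and lower in replicates 2 and 3 at 25889 and 23030. The part of these marker differences in the values of the members was not tested.

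The limma calls above rest on 3 libraries and on a spread that the model pools over genes, and each difference against a reference gene shares the 3 values of that gene. The SE covers variation between libraries and leaves out error in the length of a gene, which moved several differences by more than the SE.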

How the data were processed

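Poly(A) RNA of 3 libraries of 1 group was analysed. The deposited signal is a normalized read count per gene. DESeq2 and mm10 are the tool and build named in the submitters' processing notes. Aligner, counting tool, strand setting and filters: not given in the sources used here. Per the labels' protocols, the library kit was stranded. The values of each library were whole multiples of 1 read (0.813, 0.472 and 1.20), which recovered whole reads for 100% of values (tolerance 0.05 reads). The count test run on these reads, the chi-square test, called 7726 of 13941 genes. With 1 group there was no contrast for a count model.

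Of 19471 genes, 19366 (99.5%) matched GENCODE vM21, which gave positions and exon lengths. The 4 limma models (limma 3.58.1 in R 4.3.3, intercept only, trended prior, two-sided) used log2(value + 1) less log2 of exon length in kb, where the mean was at least 10, against the library median, Fabp7, Acsl3 or Cpt1a. P-values were Benjamini-Hochberg adjusted over all genes tested. The chi-square test took expected reads from library totals, where the mean was at least 10 and the 3 libraries held at least 30 reads. edgeR 4.0.16 gave TMM library sizes. Scripts were tested on simulated data.

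The text names all members, the 2 highest and 2 lowest genes per kb of each list, a set of paralogs and partners, and genes of counts of 5 or fewer, which were chosen after their values were seen. Some genes that this rule names are not reported here. The members and lists were chosen with earlier results of these data known. Animal, culture and preparation differ together between libraries, and p-values measure only the spread between these 3.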

Additional observations from a re-analysis of the deposited data

How the results depend on the processing

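The alternatives changed the length divisor, the pseudocount (0.1 or 10), the filter, the prior, the scaling (CPM) and the libraries; the principal transcript length was added after the data were seen. The number of members above the library median was 8 or 9 under each of the 11 alternatives. With no filter on low values 10 members were tested, and 1 of them, Fabp3, was called below. Of 28 differences tested with limma, 18 kept direction and call under every alternative, and the length divisor changed most of the others. Reversed were Acsl6 against Acsl3 (0.48, principal transcript), Acaa2 against Cpt1a (-0.039 with the longest or principal transcript, -1.55 with no division by length), and Acadm and Acadl against Cpt1a (-0.27 and -1.14, no division by length). Hadha against Cpt1a, near 0 and not called, ran from -0.033 to 0.039 with 1 replicate left out, negative without replicate 1, and Acads against Cpt1a from -0.184 to 0.045, positive without replicate 3. With no filter on low values the library median fell, and Fabp7 lay 7.99 above it. With 1 replicate left out, the reads of 4958 to 5415 genes differed between the remaining libraries, and those of 5 to 7 members, against 7726 and 8 with all 3; without replicate 1 it was 4958 genes and 5 members. The calls of Acsl3, Acaa2 and Acadvl ended without replicate 1, those of Fabp7 and Cpt1a without replicate 2, where Hadha was gained (adjusted p = 0.0476), and those of Fabp5 and Acsl6 without replicate 3. With 2 libraries left, the limma SE assumes a spread pooled over genes. No paired analysis was possible because there is 1 group. Depth limited Fabp3, with 1 to 25 reads.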
